A study of Trichoderma reesei with 17 samples.

Results

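The protein kinases and phosphatases of the filamentous fungus Trichoderma reesei were examined in the parental strain QM9414 and in its Δxyr1 mutant, which lacks XYR1, the main activator of cellulase and xylanase genes. Members were taken by the wording of the deposited gene descriptions (protein kinase, serine/threonine, histidine kinase, MAP kinase, MAPK or protein phosphatase), after the letters "na", which had been overwritten inside words by "unknown protein" in 1744 descriptions, were put back. This gave 158 protein IDs, of which 156 had at least 10 counts in at least 2 libraries and were tested, among 8506 tested genes of 9129 in the count table. The IDs 103900 and 106487, both described as protein kinases, did not pass this minimum. Since the choice rests on words, it also holds a few proteins that are not kinases or phosphatases themselves, such as a serine/threonine dehydratase (108144), calmodulin (80447) and a ubiquitin-associated protein (121359). Most members carry no more than a family name, and 14 had a gene symbol in RefSeq.

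Protein kinases transfer phosphate from ATP to serine, threonine, tyrosine or, in histidine kinases, to a histidine of the kinase itself, and phosphatases remove it. In fungi these enzymes carry signals on carbon source, osmotic state, cell wall damage and light through MAP kinase cascades, histidine phosphorelays, the cAMP-dependent kinase and the SNF1 kinase. Their activity is set largely after translation, so a transcript level is not a measure of how active a kinase is.

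RNA was sequenced in 17 libraries of 6 groups, 3 to a group, apart from QM9414 grown on glucose. There only replicates 1 and 3 entered, and replicate 2 was not analysed here. Cultures were grown in 1% cellulose, the polymer, for 24, 48 and 72 h in QM9414 but for 8 and 24 h in Δxyr1, in 1 mM sophorose, a soluble inducer of cellulases, for 2, 4 and 6 h, or in 2% glucose for 24 and 48 h. Each library pools the RNA of all its times, so no time course can be read within a library. In cellulose, strain and time in culture cannot be told apart. The carbon sources differ in time as well, so no difference between them, in either strain, can be told apart from time in culture. A glycerol pre-culture of 24 h stands before the Δxyr1 cultures in cellulose in the published methods, but before those in sophorose in the deposited description. The labels do not say that the libraries of both strains were made together, so strain and any batch of that kind cannot be told apart either. Levels are given as CPM, which are a gene's counts relative to the library total after TMM scaling, which corrects library totals for a few very abundant genes. All 17 libraries entered a single edgeR model with quasi-likelihood tests and Benjamini-Hochberg adjustment over the 8506 genes. Called genes had an adjusted p no higher than 0.05 and differed by 1 or more on the log2 scale. Differences are log2 values ± SE, always the first named group minus the second, and strain effects are Δxyr1 minus QM9414.

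Library totals lay between 7014100 and 29056712 counts, of which the members took between 0.984% and 2.53%. The targeted gene, xyr1 (122208), followed the labels within each carbon source. It lay between 534 and 677 CPM in QM9414 and between 8.39 and 14.7 in Δxyr1 in cellulose, between 2250 and 2880 CPM against between 81.5 and 93.7 in sophorose, and between 9.21 and 10.0 against between 1.01 and 5.68 in glucose. Reads assigned to the deleted gene thus remained, with between 1214 and 1300 counts in the Δxyr1 sophorose libraries, and in CPM these lay above QM9414 glucose. Δxyr1 sophorose replicate 3 stood apart, with 51.5% of its counts in 10 genes and a TMM factor of 0.528, against 12.3% and 15.7% and factors of 1.15 and 1.02 in the other two. The Δxyr1 glucose libraries had factors between 0.646 and 0.771. In QM9414 cellulose replicate 1, 6 genes that were at 50 CPM or more in every glucose library and under 2 in the other two QM9414 cellulose libraries were raised by a median of 13.4% of their level in glucose. None of the 6 is a kinase or phosphatase, but these limits ask for a steep fall. The most negative difference of cellulose from glucose among the members in QM9414 was -2.47. The screen thus does not show that the members were free of such reads, and the source of these reads was not tested. Summed transcripts of 7 genes described as conidial, spore or hydrophobin proteins lay between 1521 and 4320 CPM in the cellulose groups and between 135 and 295 CPM in the others. The 41 actin, tubulin and chitin synthase genes summed to between 6221 and 6686 CPM in QM9414 and between 4838 and 5075 in Δxyr1 in cellulose, between 6230 and 6590 against between 7258 and 7834 in sophorose, and between 7537 and 7847 against between 8601 and 9457 in glucose, with no overlap of the strains in any carbon source. The part of these differences in the results below was not tested. The published methods call the replicates biological.

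A smaller share of the kinases and phosphatases than of all tested genes was called in each of the 9 pairwise comparisons. Between the strains, 14 of 156 members (8.97%) were called in cellulose, with 9 higher and 5 lower in Δxyr1, against 18.6% of all tested genes (8.29% higher and 10.3% lower). In sophorose, 13 members (8.33%) were called, with 5 higher and 8 lower, against 17.2% (10.8% higher and 6.47% lower). Glucose gave 1 called member (0.641%), which was higher, against 2.6% (1.88% higher and 0.717% lower). Within QM9414, cellulose differed from glucose in 26 members (16.7%, with 19 higher and 7 lower), against 32.8% of all genes (19.2% higher and 13.6% lower). Sophorose differed from glucose in 30 (19.2%, with 22 higher and 8 lower), against 38.8% (19.6% higher and 19.2% lower). Sophorose and cellulose differed in 13 members of QM9414 (8.33%, with 10 higher in sophorose and 3 lower), against 17.4% (7.17% higher and 10.2% lower). In Δxyr1, 44 members were called between cellulose and glucose (28.2%, with 31 higher and 13 lower), against 44.2% of all genes (23% and 21.2%). Sophorose and glucose gave 33 (21.2%, with 18 higher and 15 lower), against 36% (19.4% and 16.6%). Between sophorose and cellulose 27 were called (17.3%, with 9 higher in sophorose and 18 lower), against 25.3% (13.5% and 11.8%). In all, 70 members (44.9%) were called in at least 1 of these comparisons, against 67.3% of all tested genes, and 86 in none. These shares are descriptions, with no test of the list.

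**Figure D1:**
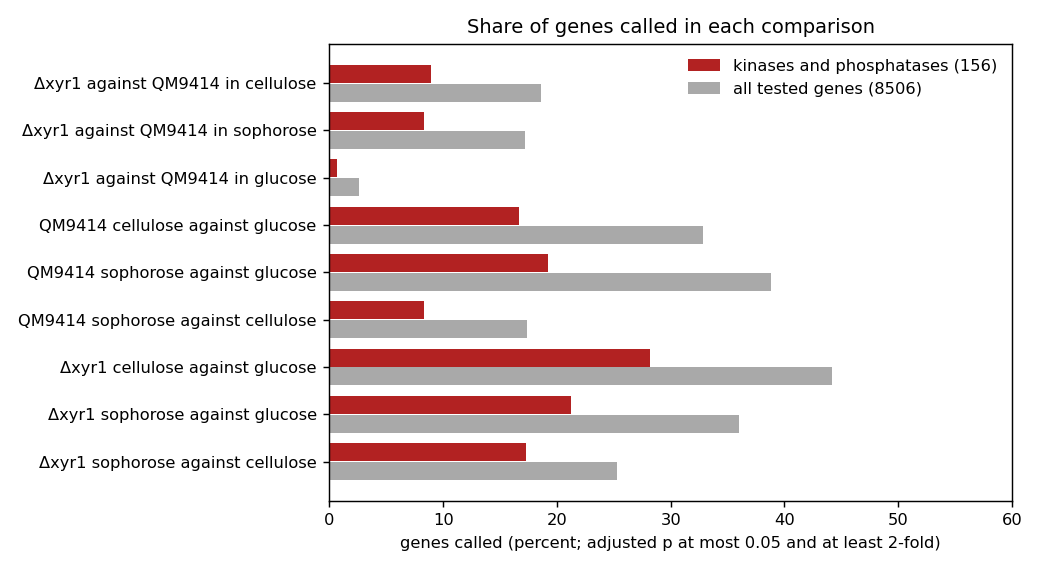
Percent of the 156 kinases and phosphatases (red) and of all 8506 tested genes (grey) that were called in each pairwise comparison of edgeR. The red bar is shorter than the grey bar in every comparison, from 0.641% against 2.6% for the strains in glucose to 28.2% against 44.2% for cellulose and glucose in Δxyr1.

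The direction of some counts depended on the scaling of the libraries. With upper-quartile factors, sophorose and glucose in Δxyr1 gave 23 members higher and 11 lower. With no scaling factors, an alternative chosen after seeing the data, the median of all genes itself moved by 0.835 between cellulose and glucose in Δxyr1 and by -0.393 between the strains in sophorose. The same fit gave 86 members higher and 5 lower in cellulose and 32 higher and 8 lower in sophorose against glucose in Δxyr1, and 5 higher and 49 lower in sophorose against cellulose. Between the strains it gave 3 higher and 33 lower in sophorose and 1 higher and 19 lower in glucose. Leaving out Δxyr1 sophorose replicate 3 raised the count for the strains in sophorose from 13 to 21, with 11 members called in both fits.

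The strain was called in cellulose or in sophorose for 24 members, of which 11 passed in cellulose only, 10 in sophorose only and 3 in both. The 3 are 21.4% of the members called in cellulose and 23.1% of those called in sophorose, and over all tested genes the 477 called in both are 30.1% and 32.6%. Both comparisons are between the same strains but share no libraries. The protein kinase 107775 was lower in Δxyr1 in both carbon sources, and the protein kinases 105820 and 73119 were higher in cellulose and lower in sophorose. A call in 1 carbon source and not in the other does not show that the effects differ. The difference itself was tested with interaction terms, given beside each member.

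**Figure D2:**
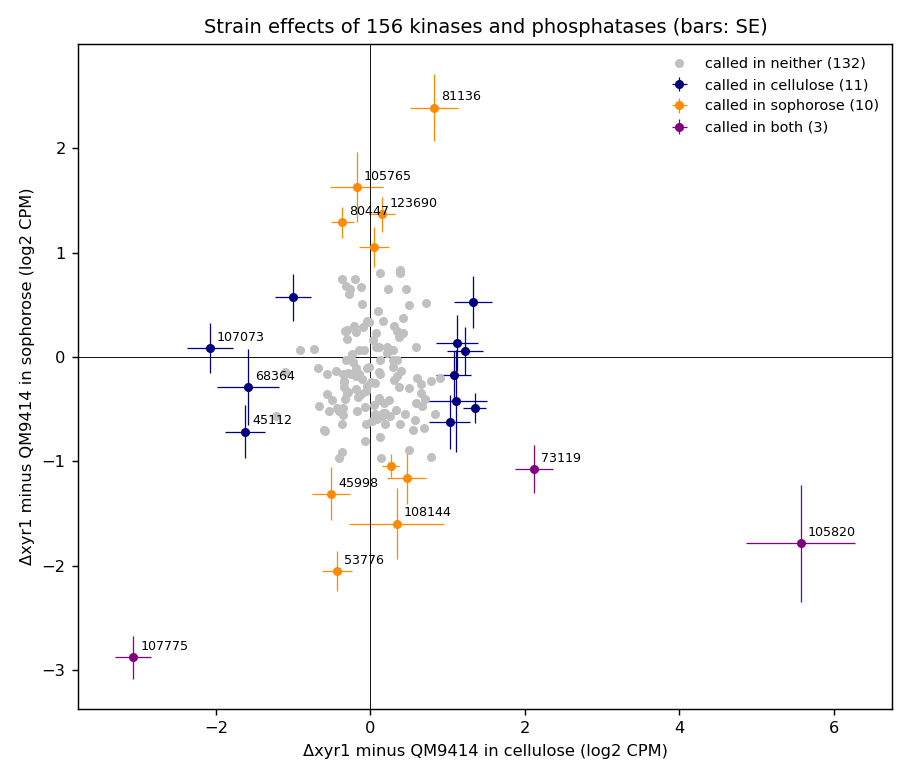
Difference between Δxyr1 and QM9414 in cellulose (horizontal axis) and in sophorose (vertical axis) for 156 members, in log2 CPM, with SE bars on called members and protein IDs beside the larger effects. There are 11 members called for cellulose only, 10 for sophorose only and 3 for both, and 107775 lies at the lower left with -3.07 and -2.88.

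MAP kinase cascades, in which 3 kinases phosphorylate each other in turn, were represented by 15 members, counting their PAK-type starter kinases and regulators such as STE50. Of all tested genes, 17.2%, 2.6% and 18.6% were called between the strains in sophorose, glucose and cellulose. No member of the list was called in sophorose or glucose, and 1 was called in cellulose. That member was 57513, described as an Ssk2-type kinase, which in yeast stands at the head of the osmotic stress cascade. Its level was 39.2, 38.9 and 48.0 CPM in QM9414 and 88.9, 81.0 and 87.1 CPM in Δxyr1 in cellulose, with no overlap, and the strain effect was 1.03 ± 0.26 (edgeR adjusted p = 0.0056). In sophorose it was 62.2, 73.5 and 73.2 CPM against 30.9, 38.9 and 65.8 CPM, with Δxyr1 replicate 3 within the QM9414 range, and the 2 strain effects differed by 1.65 ± 0.37 (adjusted p = 0.0022 for the interaction). The call in cellulose is near the threshold and was lost without QM9414 cellulose replicate 1 or 2 or Δxyr1 cellulose replicate 1, with the difference at its lowest 0.97. The cellulose libraries of the strains also differ in time.

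Against glucose, 1 of the 15 was called higher in cellulose and 1 in sophorose in QM9414, and 3 in cellulose and 1 in sophorose in Δxyr1, with 0 called lower, where 32.8%, 38.8%, 44.2% and 36% of all tested genes were called. In Δxyr1, 1 member, 103754, was called lower in sophorose than in cellulose (-1.25 ± 0.27, adjusted p = 0.0012), against 11.8% of all tested genes. The PAK/STE20 kinase 103754, an upstream activator of such cascades, was 33.4, 33.2 and 32.8 CPM in QM9414 cellulose, 38.1, 35.6 and 35.7 CPM in QM9414 sophorose and 15.7 and 13.6 CPM in QM9414 glucose. It was 43.4, 49.7 and 47.3 CPM in Δxyr1 cellulose, 17.3, 14.2 and 27.5 CPM in Δxyr1 sophorose and 22.8, 12.7 and 8.68 CPM in Δxyr1 glucose. Thus its sophorose level stood with cellulose in QM9414 (difference from glucose 1.32 ± 0.31, adjusted p = 0.0019) and with glucose in Δxyr1 (0.40 ± 0.27, adjusted p = 0.22). Its strain effects in cellulose and sophorose differed by 1.39 ± 0.38 (adjusted p = 0.0079), while the effect in sophorose alone was -0.89 ± 0.27 and reached -1.23 without Δxyr1 sophorose replicate 3.

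The MAP kinase tmk1 (121539), of the mating and pathogenicity type, was 145, 141 and 152 CPM in QM9414 cellulose, 170, 153 and 155 CPM in QM9414 sophorose and 114 and 96.5 CPM in QM9414 glucose. In Δxyr1 it was 206, 212 and 201 CPM in cellulose, 258, 212 and 207 CPM in sophorose and 103, 87.9 and 79.8 CPM in glucose, so that glucose was lowest in both strains without overlap. The differences from glucose in Δxyr1 were 1.19 ± 0.13 in cellulose (adjusted p = 5.3e-07) and 1.32 ± 0.13 in sophorose (adjusted p = 2.4e-07). In QM9414 they were 0.48 ± 0.14 and 0.60 ± 0.14, which passed the p but not the fold threshold. The MAP kinase kinase mkk1 (21168), of the cell wall integrity cascade in yeast, was 76.2, 77.9 and 73.7 CPM in Δxyr1 cellulose against 43.5, 27.7 and 24.2 CPM in Δxyr1 glucose (1.25 ± 0.18, adjusted p = 1.8e-05). In QM9414 it was 46.0, 46.5 and 47.2 CPM against 41.5 and 33.9 CPM. Its strain effects in cellulose and sophorose differed by 1.11 ± 0.25 (adjusted p = 0.0026).

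The remaining MAP kinases were steadier. For tmk3 (45018), the Hog1-type kinase of osmotic stress, levels were 199, 224 and 195 CPM in QM9414 and 317, 378 and 382 CPM in Δxyr1 in sophorose, without overlap, a difference of 0.80 ± 0.18 (adjusted p = 0.002) under the fold threshold. The strain effect of tmk2 (82351), of the cell wall integrity type, was -0.14 ± 0.11 in cellulose, 0.07 ± 0.11 in sophorose and -0.26 ± 0.12 in glucose, and none passed the p threshold.

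**Figure D3:**
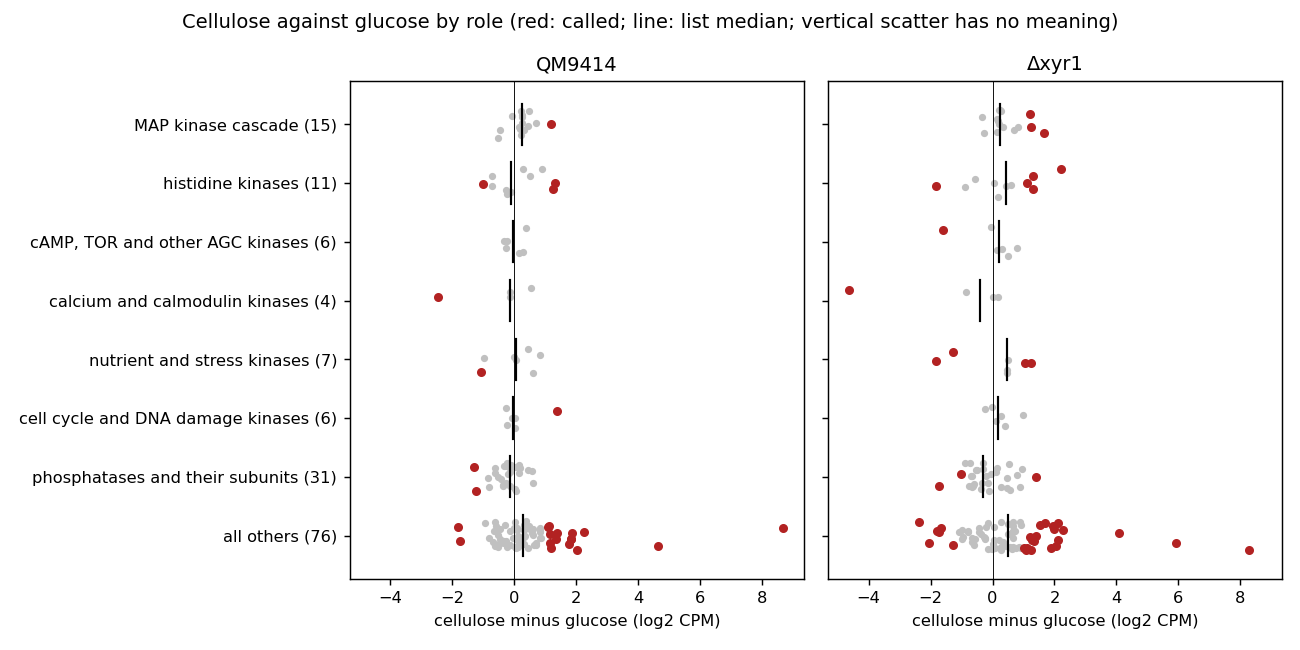
Difference between cellulose and glucose in QM9414 (left) and Δxyr1 (right), in log2 CPM, for the 156 members by role, with the number of members in parentheses, called members in red and the median of each list as a line. The most positive points are 64125 with 8.69 in QM9414 and 8.28 in Δxyr1, and the most negative is the calcium/calmodulin kinase 107073 with -2.47 and -4.64.

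Histidine kinases, the sensors of phosphorelays, numbered 11. None was called between the strains, against 18.6%, 17.2% and 2.6% of all tested genes in cellulose, sophorose and glucose. Against glucose, 2 were called higher and 1 lower in cellulose and 3 higher and 1 lower in sophorose in QM9414, and 4 higher and 1 lower in cellulose and 1 higher and 3 lower in sophorose in Δxyr1. The shares of all tested genes called in these comparisons were 32.8%, 38.8%, 44.2% and 36%. The hybrid kinase HHK6 (62751) was 684, 772 and 679 CPM in QM9414 cellulose, 610, 536 and 602 CPM in QM9414 sophorose and 308 and 260 CPM in QM9414 glucose. Δxyr1 held 926, 1042 and 899 CPM in cellulose, 710, 628 and 716 CPM in sophorose and 298, 182 and 133 CPM in glucose. Glucose was the lowest group of both strains, and the differences of cellulose from glucose were 1.32 ± 0.26 (adjusted p = 0.00046) and 2.22 ± 0.23 (adjusted p = 4.8e-07).

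The kinase 50068 was highest in glucose, with 99.7 and 120 CPM in QM9414 and 158, 151 and 259 CPM in Δxyr1, against 48.5, 51.5 and 59.8 CPM in Δxyr1 cellulose (-1.83 ± 0.23, adjusted p = 4.4e-06) and 71.0, 63.0 and 68.3 CPM in QM9414 cellulose (-0.70 ± 0.25, under the fold threshold). For 70943 the levels were 105, 109 and 101 CPM in QM9414 cellulose and 153, 166 and 143 CPM in Δxyr1 cellulose, but 89.1, 81.6 and 83.0 CPM against 60.2, 45.1 and 50.8 CPM in sophorose. Neither strain effect of 70943 passed the fold threshold (0.55 ± 0.18 and -0.70 ± 0.18), and the difference between them was 1.25 ± 0.26 (adjusted p = 0.0012). The phytochrome-like kinase PHY1 (77764), a light receptor, was called higher than glucose in QM9414 sophorose (1.00 ± 0.27) and Δxyr1 cellulose (1.31 ± 0.24).

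The list of cAMP-dependent, TOR-related and other AGC kinases had 6 members, and none was called between the strains or within QM9414. Of all tested genes, 18.6%, 17.2% and 2.6% were called between the strains in cellulose, sophorose and glucose. Within QM9414 these shares were 32.8% and 38.8% for cellulose and sophorose against glucose, and 17.4% for sophorose against cellulose. The catalytic subunits of the cAMP-dependent kinase were pkac1 (57399), with between 67.4 and 100 CPM in QM9414 and between 42.2 and 94.5 CPM in Δxyr1, and pkac2 (65873), with between 16.9 and 24.8 and between 11.4 and 26.6 CPM. The regulatory subunit pkar1 (75878) ranged from 125 to 162 CPM in QM9414 and from 120 to 180 CPM in Δxyr1. In this list, pkac1 was the only member past the p threshold between the strains in glucose (-0.54 ± 0.14, adjusted p = 0.032), below the fold threshold. The ypk1-type kinase pkt1 (111799) was 281, 280 and 285 CPM in QM9414 sophorose and 201, 166 and 205 CPM in Δxyr1 sophorose, which do not overlap, with a difference of -0.56 ± 0.11 (adjusted p = 0.00097). The kinase 119679 is described as a calcium/calmodulin dependent kinase related to cmkC of E. nidulans. It fell in this list only by the words kinase C in its description and stayed between 36.8 and 81.6 CPM in all libraries.

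The kinase 119614, related to yeast Sch9, an effector of nutrient signals, was the member of this list that moved most. In QM9414 it was 502, 470 and 465 CPM in cellulose, 435, 452 and 478 CPM in sophorose and 552 and 602 CPM in glucose. In Δxyr1 it was 270, 290 and 339 CPM in cellulose, 336, 438 and 492 CPM in sophorose and 766, 795 and 1161 CPM in glucose. Glucose was highest in both strains without overlap, and in Δxyr1 the difference of cellulose from glucose was -1.60 ± 0.19 (adjusted p = 1.7e-06) against -0.27 ± 0.20 in QM9414 (adjusted p = 0.27). The interaction was -1.33 ± 0.28 (adjusted p = 0.0023).

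The list of calcium/calmodulin-dependent kinases, which respond to calcium bound to calmodulin, had 4 members and left out 119679, given above. The EF-hand kinase 107073 was a glucose transcript, with 20.0 and 18.1 CPM in QM9414 glucose and 22.9, 18.4 and 19.7 CPM in Δxyr1 glucose. It was 4.82, 2.43 and 2.89 CPM in QM9414 cellulose and 1.19, 0.687 and 0.652 CPM in Δxyr1 cellulose, where the groups did not overlap. In sophorose the strains held 3.69, 2.81 and 3.65 CPM and 3.24, 3.72 and 3.82 CPM. The strain effect was -2.08 ± 0.30 in cellulose (adjusted p = 5.3e-05) and 0.09 ± 0.24 in sophorose, and the interaction was -2.17 ± 0.39 (adjusted p = 0.00039). QM9414 cellulose replicate 1 was the highest of its group, and without it the effect in cellulose was -1.72.

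The kinase 76522 was 548, 575 and 405 CPM in Δxyr1 sophorose, above every other library, where it lay between 182 and 346 CPM. Against Δxyr1 cellulose this was 1.17 ± 0.14 (adjusted p = 4.7e-06) and against QM9414 sophorose 0.61 ± 0.13 (adjusted p = 0.0021), the latter under the fold threshold. Calmodulin itself (cam1, 80447) was called higher in Δxyr1 sophorose, with 400, 417 and 301 CPM against 142, 164 and 150 CPM in QM9414 sophorose, a strain effect of 1.29 ± 0.15 (adjusted p = 1.2e-05). In cellulose calmodulin was 180, 147 and 173 CPM in QM9414 and 140, 125 and 124 CPM in Δxyr1, and the strain effects differed by -1.65 ± 0.21 (adjusted p = 2.1e-05). The calcium/calmodulin kinases cmk2 (121684) and 22381 were not called in any comparison, with cmk2 between 39.7 and 57.4 CPM in all libraries.

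Among 7 nutrient and stress kinases, none was called between the strains in cellulose or glucose, against 18.6% and 2.6% of all tested genes. In sophorose 2 were called lower in Δxyr1 and 0 higher, against 6.47% and 10.8% of all tested genes. The SNF1 kinase (snf1, 45998), known in yeast for growth on carbon sources other than glucose, was 844, 973 and 914 CPM in QM9414 sophorose and 265, 294 and 542 CPM in Δxyr1 sophorose. The groups did not overlap, and the strain effect was -1.31 ± 0.25 (adjusted p = 0.00077), or -1.72 without Δxyr1 replicate 3, the highest of its group. In glucose snf1 was 830 and 900 CPM in QM9414 and 1013, 894 and 1178 CPM in Δxyr1 (0.25 ± 0.28, adjusted p = 0.63), and the strain effects in sophorose and glucose differed by -1.56 ± 0.38 (adjusted p = 0.012). In cellulose it was 426, 380 and 431 CPM in QM9414 and 237, 248 and 385 CPM in Δxyr1 (-0.51 ± 0.25, adjusted p = 0.12). Snf1 transcripts were thus at the glucose level in QM9414 sophorose (0.07 ± 0.28) and below it in Δxyr1 sophorose (-1.49 ± 0.25, adjusted p = 0.00011), QM9414 cellulose (-1.07 ± 0.27, adjusted p = 0.0038) and Δxyr1 cellulose (-1.83 ± 0.26, adjusted p = 1.2e-05).

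Rim15 (120605), a kinase of entry into stationary phase in yeast, was 531, 504 and 567 CPM in QM9414 sophorose and 192, 187 and 338 CPM in Δxyr1 sophorose, a strain effect of -1.16 ± 0.25 (adjusted p = 0.0019) without overlap. In cellulose it was 334, 399 and 396 CPM in QM9414 and 514, 537 and 512 CPM in Δxyr1 (0.47 ± 0.25, adjusted p = 0.15), and the strain effects differed by 1.63 ± 0.36 (adjusted p = 0.0018). The order of the strains was thus opposite in the 2 carbon sources, with Δxyr1 above QM9414 in every cellulose library. The effect of Rim15 in sophorose was -1.51 without Δxyr1 sophorose replicate 3. The casein kinase 21176 was highest in glucose, with 18.7 and 19.2 CPM in QM9414 and 21.1, 21.8 and 18.5 CPM in Δxyr1 against between 5.18 and 12.8 CPM in all other libraries.

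**Figure D4:**
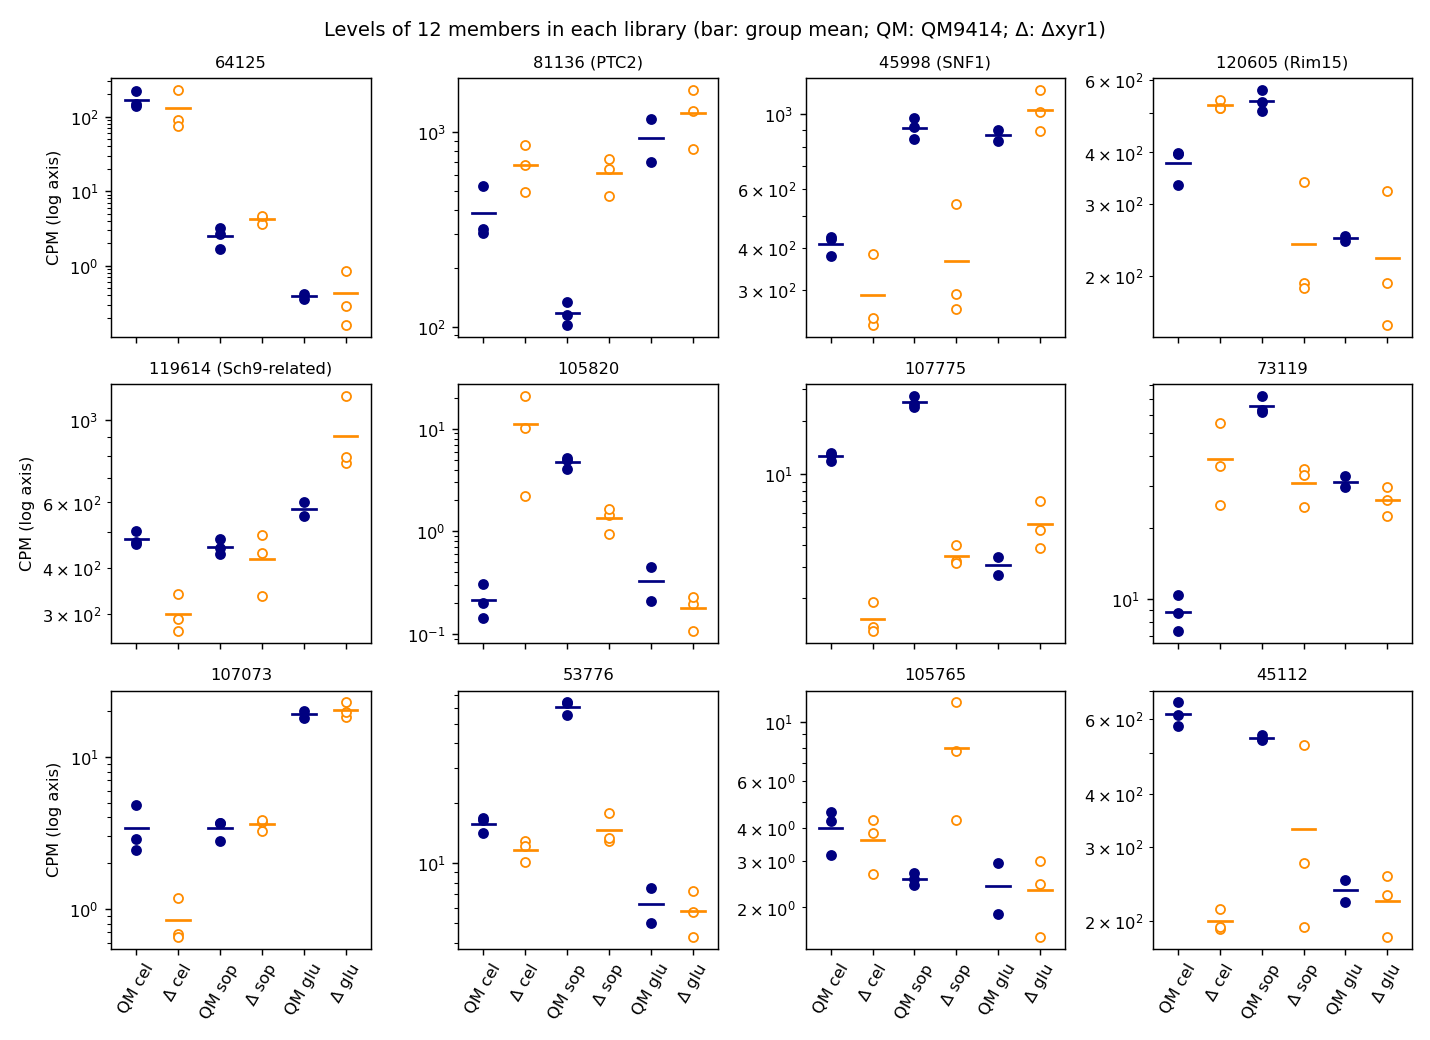
Level of 12 members in each of the 17 libraries, in CPM on log axes that differ between panels, with QM9414 as filled and Δxyr1 as open points and a bar at each group mean. For 107775 both inducing groups of QM9414 (between 11.9 and 27.4 CPM) lie above all Δxyr1 libraries, and for snf1 the QM9414 sophorose libraries (between 844 and 973 CPM) lie above those of Δxyr1 (between 265 and 542 CPM).

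No cell cycle or DNA damage kinase, of 6, was called between the strains. Over all tested genes, the strain comparison called 18.6% with cellulose, 17.2% with sophorose and 2.6% with glucose. With only 6 members, the absence of calls does not show that these kinases respond less to the strain than other genes. WEE1 (67982), which holds back mitosis by phosphorylating the cyclin-dependent kinase, was 150, 158 and 193 CPM in QM9414 cellulose against 62.7 and 64.5 CPM in QM9414 glucose (1.40 ± 0.32, adjusted p = 0.0017). In Δxyr1 it was 121, 149 and 108 CPM in cellulose and 96.8, 54.6 and 37.7 CPM in glucose, a difference of 0.99 that missed the fold threshold. The cyclin-dependent kinase 124179 was between 89.7 and 156 CPM in all libraries. BUB1 (57904), of the spindle checkpoint, was between 40.7 and 69.7 CPM, IME2 (50071), an inducer of meiosis in yeast, between 40.0 and 111 CPM, NPKA (124172) between 10.3 and 18.1 CPM, and the Kin28-associated cyclin (69793) between 20.5 and 41.2 CPM.

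The list of phosphatases and their subunits had 31 members, among them calmodulin, whose description names phosphatases. Between the strains, 1 was called higher (5737) and 0 lower in cellulose, against 8.29% and 10.3% of all tested genes. In sophorose 3 were called higher (81136, 23417 and calmodulin) and 1 lower (Ptc1), against 10.8% and 6.47%. Glucose gave 0 calls, against 2.6%, and 3 members passed the p threshold alone there. The greatest strain effect was that of 81136, a type 2C phosphatase described as PTC2, a class that in yeast switches off the osmotic stress MAP kinase. In QM9414 it was 704 and 1164 CPM in glucose, 528, 317 and 303 CPM in cellulose and 115, 102 and 134 CPM in sophorose. In Δxyr1 it was 822, 1291 and 1646 CPM in glucose, 680, 491 and 863 CPM in cellulose and 471, 726 and 645 CPM in sophorose. The strains did not overlap in sophorose, and the strain effect there was 2.39 ± 0.32 (adjusted p = 4.2e-05), against 0.82 ± 0.31 in cellulose and 0.42 ± 0.34 in glucose.

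The strain effect of 81136 in sophorose exceeded that in cellulose (-1.56 ± 0.43, cellulose minus sophorose, adjusted p = 0.0087) and differed from that in glucose by 1.97 ± 0.45 (adjusted p = 0.0089). Within QM9414 its level fell from glucose to sophorose by 3.00 ± 0.35 on the log2 scale (adjusted p = 2.2e-06). QM9414 cellulose replicate 1 was again the highest of its group, and without it the strain effect in cellulose was 1.13 (adjusted p = 0.014) and passed the fold threshold. Another gene with the same name, ptc2 in RefSeq (81164), did not move with it and lay between 139 and 276 CPM in all libraries, with strain effects of -0.15 ± 0.19 in cellulose, -0.16 ± 0.19 in sophorose and -0.14 ± 0.22 in glucose. Per kilobase of gene span, 81136 was the most abundant member in 5 of the 6 groups, with 1022 and 1371 CPM per kilobase in glucose in QM9414 and Δxyr1, and it was not among the leading 5 in QM9414 sophorose, where the kinase 119822 led with 315 and snf1 followed with 292.5 CPM per kilobase.

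Ptc1 (58587), another type 2C phosphatase, went the opposite way in sophorose, with 209, 240 and 242 CPM in QM9414 and 104, 116 and 116 CPM in Δxyr1 (-1.04 ± 0.11, adjusted p = 5.6e-06). In cellulose it was 125, 137 and 136 CPM against 154, 169 and 156 CPM, and the strain effects differed by 1.30 ± 0.16 (adjusted p = 1.2e-05). In glucose, where its strain effect was -0.75 ± 0.12 (adjusted p = 0.0037), it was 139 and 150 CPM in QM9414 against 84.4, 94.9 and 78.0 CPM in Δxyr1. Ptc1, ptc2, tmk2, tmk3, PHY1, 57513, 119822 and 5737 fell outside the rule for named genes and were chosen after their values were seen.

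The tyrosine/serine phosphatase 5737 was called higher in Δxyr1 in cellulose, with 12.9, 5.15 and 8.80 CPM against 4.22, 4.22 and 3.69 CPM in QM9414 (1.12 ± 0.27, adjusted p = 0.0037). It was not called without Δxyr1 cellulose replicate 1, where the difference was 0.78. The phosphotyrosine phosphatase 23417 was 28.7, 29.8 and 31.4 CPM in QM9414 sophorose and 54.0, 72.4 and 60.6 CPM in Δxyr1 sophorose (1.05 ± 0.19, adjusted p = 0.0005), a call lost without Δxyr1 sophorose replicate 2, when the difference was 0.93. The dual specificity phosphatase 41428 was a glucose transcript in both strains, with 74.6 and 102 CPM in QM9414 and 95.2, 98.5 and 122 CPM in Δxyr1 glucose against between 26.3 and 53.0 CPM elsewhere. The type 2C phosphatase 124001 was highest in sophorose, with 34.9, 34.4 and 35.7 CPM in QM9414 and 38.8, 31.4 and 23.8 CPM in Δxyr1, and between 7.90 and 18.5 CPM in all other libraries. Sophorose exceeded cellulose by 1.36 ± 0.19 in QM9414 (adjusted p = 3.9e-05). The dual specificity phosphatase 65499, called higher in sophorose than cellulose in QM9414 (1.62 ± 0.49, adjusted p = 0.016), had 36 counts against 13 over 3 libraries each, and leaving out libraries raised its adjusted p to as much as 0.096.

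The remaining 76 members had descriptions that matched none of the role lists. In cellulose, 7 of these were called higher and 4 lower in Δxyr1, against 8.29% and 10.3% of all tested genes. In sophorose 2 of them were higher and 5 lower, against 10.8% and 6.47%, and in glucose 1 was higher, against 1.88%. Their median strain effect was 0.0478 in cellulose against -0.0185 over all tested genes, -0.268 against 0.0333 in sophorose and -0.0557 against -0.00227 in glucose.

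The protein kinase 107775 was called lower in Δxyr1 in cellulose and in sophorose. It was 11.9, 12.9 and 13.1 CPM in QM9414 and 1.90, 1.37 and 1.30 CPM in Δxyr1 in cellulose, and 23.9, 27.4 and 24.7 CPM against 3.24, 3.14 and 3.96 CPM in sophorose. No libraries of the strains overlapped in either. The strain effects were -3.07 ± 0.23 (adjusted p = 5.8e-08) and -2.88 ± 0.20 (adjusted p = 7.6e-08), and their difference had a 95% interval of -0.78 to 0.40. In glucose it was 2.71 and 3.41 CPM in QM9414 and 3.84, 7.08 and 4.84 CPM in Δxyr1, and the strain effect in cellulose minus that in glucose was -3.81 ± 0.34 (adjusted p = 1.6e-06), and that in sophorose minus that in glucose -3.62 ± 0.32 (adjusted p = 3.8e-06). QM9414 thus raised this transcript over glucose in cellulose (2.02 ± 0.24) and sophorose (3.03 ± 0.24), and Δxyr1 held it below glucose in cellulose (-1.78 ± 0.24, adjusted p = 6.9e-06).

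The protein kinase 53776 was 64.2, 63.4 and 55.5 CPM in QM9414 sophorose and between 4.26 and 17.8 CPM in all other libraries. Its strain effect was -2.05 ± 0.19 in sophorose (adjusted p = 1.5e-06). The effect in cellulose minus that in sophorose was 1.62 ± 0.27 (adjusted p = 0.00022), and the effect in sophorose minus that in glucose was -1.97 ± 0.30 (adjusted p = 0.0006). The kinase 45112 was 578, 615 and 658 CPM in QM9414 cellulose and 192, 194 and 214 CPM in Δxyr1 cellulose (-1.62 ± 0.26, adjusted p = 0.00016), the latter at the level of glucose (between 184 and 255 CPM in both strains). In sophorose it was 539, 536 and 551 CPM in QM9414 but 194, 274 and 522 CPM in Δxyr1, where replicate 3 stood close to QM9414, and without that library the strain effect of 45112 in sophorose was -1.23 (adjusted p = 6.9e-05) and passed the fold threshold.

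The 2 members called in opposite directions, 73119 and 105820, are adjacent genes in RefSeq's table of the QM6a assembly v2.0, 746 bases apart, and RefSeq annotates 73119 as a pseudogene. In cellulose, 73119 was 10.5, 7.36 and 8.79 CPM in QM9414 and 55.0, 24.9 and 36.6 CPM in Δxyr1 (2.12 ± 0.24, adjusted p = 5.9e-06), and in sophorose 62.4, 61.3 and 71.6 CPM against 35.2, 33.3 and 24.4 CPM (-1.07 ± 0.23, adjusted p = 0.0017). For 105820 the levels were 0.199, 0.143 and 0.307 CPM against 20.8, 2.20 and 10.2 CPM in cellulose (5.57 ± 0.71, adjusted p = 1.5e-05), and 4.95, 4.02 and 5.15 CPM against 1.45, 1.67 and 0.937 CPM in sophorose (-1.79 ± 0.56, adjusted p = 0.017). No libraries of the strains overlapped in any of these. The strain effects in cellulose and sophorose differed by 3.19 ± 0.33 for 73119 (adjusted p = 3.8e-06) and by 7.36 ± 0.91 for 105820 (adjusted p = 1.7e-05).

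In cellulose, 105820 had 11 counts over the 3 QM9414 libraries and 332 over those of Δxyr1, of which replicate 1 held most. Both calls in sophorose were lost without Δxyr1 sophorose replicate 3 (that of 73119 also without QM9414 sophorose replicate 3), where 73119 was at -0.94 and 105820 at -1.60 with an adjusted p of 0.053. The genes on either side of the pair did not share its pattern. A Zn2Cys6 regulator on one side (121130) had strain effects of 0.23 in cellulose and 0.88 in sophorose, neither called, and an MFS permease on the other side (59333), 281 bases from 105820, was lower in Δxyr1 in both (-6.77 and -4.23). Of the 8 genes in a row that were looked at, 59272 also had calls of opposite sign, but with the signs reversed (-1.84 in cellulose and 1.18 in sophorose). A kinase outside the word rule, 105449, described as cyclin C-dependent kinase CDK8, had levels like those of 105820, with 0.0497, 0.214 and 0.0615 CPM in QM9414 and 17.9, 1.37 and 7.90 CPM in Δxyr1 cellulose, and 3.69, 2.75 and 4.61 CPM against 0.551, 0.513 and 0.432 CPM in sophorose. Its strain effects were 6.34 and -2.86 (adjusted p = 6.7e-05 and 0.0065), and it was chosen after its values were seen.

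**Figure D5:**
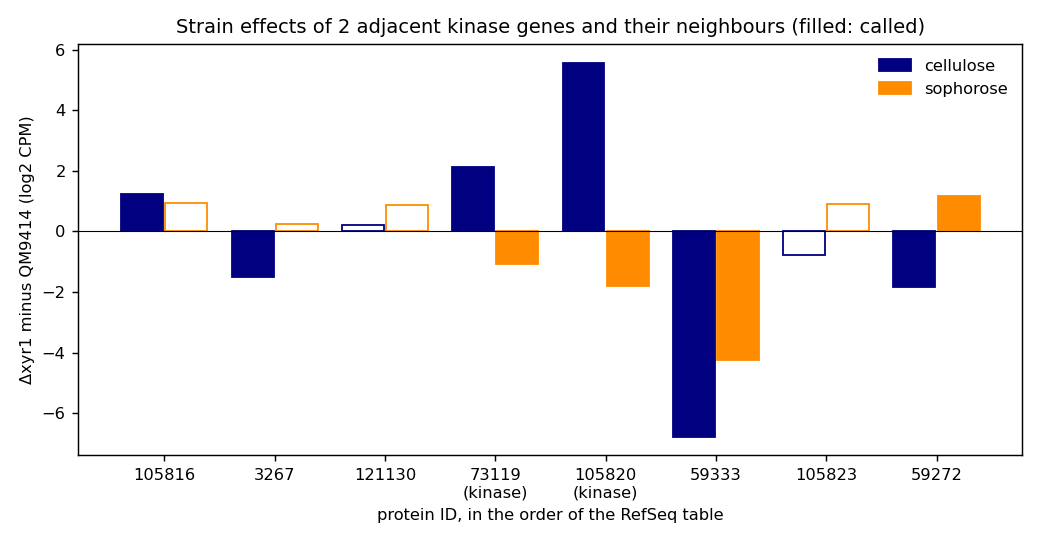
Strain effect (Δxyr1 minus QM9414, log2 CPM) in cellulose (blue) and sophorose (orange) for the adjacent kinase genes 73119 and 105820 and the genes beside them in the order of the RefSeq table, with filled bars for called effects. Both kinases have a positive bar in cellulose (2.12 and 5.57) and a negative bar in sophorose (-1.07 and -1.79), and the permease 59333 is negative in both.

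The greatest difference between carbon sources among the members was that of 64125, annotated as a serine/threonine kinase. It was 140, 145 and 218 CPM in QM9414 and 88.6, 226 and 75.6 CPM in Δxyr1 cellulose, 2.67, 1.66 and 3.23 CPM and 4.41, 3.66 and 4.68 CPM in sophorose, and 0.361 and 0.419 CPM and 0.160, 0.291 and 0.845 CPM in glucose. All cellulose libraries thus lay above all others, and the difference from glucose was 8.69 ± 0.67 in QM9414 (adjusted p = 4.0e-08) and 8.28 ± 0.56 in Δxyr1 (adjusted p = 3.4e-09), on 12 and 17 counts in glucose. The difference of sophorose from cellulose was -6.05 ± 0.46 in QM9414 and -4.94 ± 0.43 in Δxyr1. Its strain effect in cellulose was -0.37 ± 0.35 (adjusted p = 0.43), but it reached -1.03 (adjusted p = 0.011) and passed both thresholds without Δxyr1 cellulose replicate 2, the highest of its group. The sum of the 7 conidial, spore and hydrophobin transcripts given above was likewise higher in the cellulose groups. Any relation of 64125 to these transcripts was not tested.

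The serine/threonine kinase 78639 was 572, 678 and 694 CPM in QM9414 cellulose and 453, 573 and 516 CPM in Δxyr1 cellulose, 406, 333 and 375 CPM and 459, 456 and 408 CPM in sophorose, and 27.5 and 24.5 CPM and 33.8, 28.0 and 29.9 CPM in glucose. It was thus high in both inducing carbon sources and low in glucose in both strains, with differences of cellulose from glucose of 4.64 ± 0.20 in QM9414 and 4.07 ± 0.16 in Δxyr1. The kinase 119616 was 231, 259 and 265 CPM in QM9414 cellulose against 62.7 and 44.3 CPM in glucose, and 154, 172 and 288 CPM against 34.1, 44.6 and 48.8 CPM in Δxyr1. DBF2 (59668), a kinase of mitotic exit in yeast, was 109, 126 and 117 CPM in QM9414 cellulose and 35.3 and 29.0 CPM in glucose (1.87 ± 0.16, adjusted p = 1.5e-07). Its levels in Δxyr1 were 77.7, 93.1 and 66.9 CPM in cellulose and 26.9, 25.1 and 21.4 CPM in glucose (1.70 ± 0.14, adjusted p = 4.2e-08).

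Some kinases were highest in glucose. The kinase 106081 was 335 and 398 CPM in QM9414 and 514, 314 and 230 CPM in Δxyr1 glucose, and between 53.6 and 127 CPM in all other libraries. The kinase 66521 was the only member called between the strains in glucose, with 27.4 and 65.8 CPM in QM9414 and 85.0, 221 and 201 CPM in Δxyr1 (1.85 ± 0.43, adjusted p = 0.023). That call was lost when QM9414 glucose replicate 1, or Δxyr1 glucose replicate 2 or 3, was left out, and when only the glucose libraries were fitted. For 66521, glucose was clearly highest only in Δxyr1, since QM9414 glucose replicate 1 lay below every QM9414 sophorose library. The kinase 36006 was lowest in sophorose, with 108, 101 and 106 CPM in QM9414 and 77.1, 77.8 and 81.3 CPM in Δxyr1, against between 162 and 276 CPM in all other libraries.

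Several kinases were higher in Δxyr1 cellulose. The putative serine/threonine kinase 102711 was 353, 323 and 296 CPM there against 122, 129 and 131 CPM in QM9414 cellulose (1.35 ± 0.15, adjusted p = 3.2e-06), and between 89.7 and 169 CPM in all other libraries, with a difference of 1.84 ± 0.21 from its strain effect in sophorose (adjusted p = 6.5e-06). The kinase 123019 was 19.4, 20.1 and 20.5 CPM there and between 3.59 and 11.2 CPM elsewhere (1.08 ± 0.23, adjusted p = 0.0014), a call lost without QM9414 cellulose replicate 3, when the difference was 0.91. The kinase 78226 was 277, 218 and 237 CPM in Δxyr1 cellulose and between 57.5 and 155 CPM elsewhere, with a strain effect in cellulose of 0.79 ± 0.16 (adjusted p = 0.0013) under the fold threshold, and its strain effects in cellulose and sophorose differed by 1.75 ± 0.23 (adjusted p = 3.2e-05). For 112669 the levels were 11.8, 7.29 and 10.3 CPM in QM9414 and 20.9, 21.1 and 27.0 CPM in Δxyr1 cellulose (1.23 ± 0.24, adjusted p = 0.00074), and between 20.5 and 28.4 CPM in sophorose in both strains. All these libraries also differ in time in culture, which cannot be told apart from the strain.

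Other members were lower in Δxyr1 cellulose or changed in sophorose. The kinase 68364 was 9.79, 10.7 and 11.8 CPM in QM9414 and 3.91, 3.37 and 3.50 CPM in Δxyr1 cellulose (-1.58 ± 0.40, adjusted p = 0.0051). The protein 123690, whose description joins a protein kinase and the exon junction protein mago nashi, was 37.0, 41.1 and 41.2 CPM in QM9414 and 119, 117 and 71.0 CPM in Δxyr1 sophorose (1.37 ± 0.17, adjusted p = 2.2e-05). The kinase 105765 was 2.43, 2.56 and 2.69 CPM against 4.27, 7.76 and 11.9 CPM there (1.63 ± 0.33, adjusted p = 0.0012). The dehydratase 108144, an enzyme of amino acid breakdown, was 5.10, 4.54 and 5.33 CPM in QM9414 sophorose, 1.38, 1.41 and 2.16 CPM in Δxyr1 sophorose (-1.60 ± 0.34, adjusted p = 0.0017) and at most 1.33 CPM in all other libraries.

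Calls on the lowest members rest on few reads. The kinases 105027 (1.11 ± 0.40 between the strains in cellulose, adjusted p = 0.04), 63104 (lower in Δxyr1 and just past the fold threshold, adjusted p = 0.003) and 103813 (1.33 ± 0.25, adjusted p = 0.00051) had 22, 133 and 129 counts over the QM9414 cellulose libraries and 33, 46 and 220 over those of Δxyr1. The call of 105027 was lost when any of 5 of the 6 compared libraries was left out, and that of 63104 under most alternatives, while that of 103813 held under every alternative that was run. The kinases 106939 and 55719 were at or below 1.47 CPM in every library.

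The tests of the difference itself found strain effects that were not the same in the carbon sources. The effect in cellulose exceeded that in sophorose in 22 members and fell short of it in 7, together 18.6% of the members against 28.6% of all tested genes (11.8% and 16.8%). Cellulose and glucose gave 12 and 7, against 19.1% of all genes (7.87% and 11.3%), and sophorose and glucose 3 and 7, against 12% (6.54% and 5.48%). Over the members the median difference between the effects in cellulose and sophorose was 0.13, against -0.104 over all genes. Without scaling factors the first of these splits was 56 and 2, and the median over all genes moved by 0.597. The Rim15 and PAK/STE20 kinases, mkk1 and the histidine kinase 70943 were among the 22, and the phosphatases 81136 and 23417 and calmodulin among the 7.

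Partners of these enzymes were followed in lists taken by words from the descriptions. The list of cyclins had 33 tested genes, many of them described as cyclin-like F-box proteins, and it also held the kinase 105449. Of these, 6 were called higher and 1 lower in Δxyr1 in cellulose, against 18.6% of all tested genes, and 3 higher and 2 lower in sophorose, against 17.2%. Against glucose, 12 were higher and 1 lower in Δxyr1 cellulose (44.2% of all genes) and 3 higher and 1 lower in QM9414 cellulose (32.8%). A list of 18 cAMP, calcium and 14-3-3 proteins also took in phosphodiesterases of other substrates. Its 3 calls in cellulose, all higher in Δxyr1, were the cAMP phosphodiesterase PDE1 (3873) with 1.04, a glycerophosphoryl diester phosphodiesterase (63395) with 1.04 and an acid sphingomyelin phosphodiesterase (77093) just past the fold threshold. Its 1 call in sophorose, also higher, was a GTPase of the adenylate cyclase pathway (60928) with 1.40. Of all tested genes, 8.29% were called higher in cellulose and 10.8% in sophorose. Of 12 lipid and inositol kinases, 0 were called between the strains in any carbon source. The 2 response regulator receivers (121066 and 121173) and the stress response regulator SrrA (47635) were not called either. Between the strains, 18.6%, 17.2% and 2.6% of all tested genes were called in cellulose, sophorose and glucose. Of 9 other protein phosphatases, 1 was called higher in Δxyr1 in cellulose and in sophorose, against 8.29% and 10.8% of all tested genes. It was the dual specificity phosphatase 5771, with 1.14 and 1.49.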

How the data were processed

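The authors aligned reads with TopHat2 (2.0.4) and deposited raw counts per gene, with SAMtools 0.1.19, HTSeq 0.6.0 and DESeq2 1.6.3 named in the submitters' processing notes. These counts were the only values used. Normalized values and the authors' fold change and p columns in the same tables were not used. Libraries were grouped by their titles. Counts were fitted in R 4.3.3 with edgeR 4.0.16 (quasi-likelihood F test, TMM factors, 1 coefficient for each of 6 groups, 17 libraries), keeping genes that reached 10 counts in 2 or more libraries, with Benjamini-Hochberg adjustment over all genes. SE is the log2 difference divided by the square root of F, and 95% intervals are normal. The fit was tested on simulated data. Alternatives were DESeq2 1.42.0, other scaling factors and filters, the adjusted p alone, the compared groups alone, a replicate block and leaving out each library. CPM are scaled by TMM factors, and gene names and spans come from RefSeq (QM6a assembly v2.0).

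Members, role lists and partner lists were chosen with earlier results of these data known. Named were, in each pairwise comparison, up to 5 members with the greatest change in each direction among called members whose groups did not overlap, every member of a role list of 6 or fewer and the 3 with the widest range of longer lists, members called alike between the strains in cellulose and sophorose, and the 5 with the greatest interaction between these in each direction.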

Additional observations from a re-analysis of the deposited data

Results flagged for a closer look

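The strain effect differed between cellulose and sophorose in 29 members by the interaction term of edgeR. Among the members named by the rule, the log2 difference (cellulose minus sophorose) was positive for 102711 (1.84), 103754 (1.39), 105820 (7.36), 108144 (1.94), 112669 (1.17), Rim15 (1.63), 123019 (1.26), mkk1 (1.11), 53776 (1.62), 70943 (1.25), 73119 (3.19) and 78226 (1.75). Outside the rule it was also positive for 57513 (1.65), Ptc1 (1.305) and 119822 (1.02). The difference was positive too in 67534 (1.39), 59384 (1.37), 66928 (1.18), 123313 (1.14), 102910 (1.10), 102482 (1.03) and 104463 (1.00). It was negative for 105765 (-1.81), 107073 (-2.17), 123690 (-1.21), 23417 (-1.01), 63104 (-1.57), calmodulin (-1.65) and 81136 (-1.56).

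The strain effect differed between cellulose and glucose in 19 members by the interaction term of edgeR. Among the members named by the rule, the log2 difference (cellulose minus glucose) was positive for 102711 (1.37), 105820 (6.40), 112669 (1.81), 123019 (1.56), 70943 (1.00) and 73119 (2.38). Outside the rule it was also positive for 57513 (1.21), 5737 (1.23), Ptc1 (1.02), 81007 (1.33), 102910 (1.265) and 67534 (1.21). It was negative for 107073 (-2.17), 107775 (-3.81), 119614 (-1.33), 45112 (-1.54), 50068 (-1.12), 63104 (-1.69) and 68364 (-1.99).

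The strain effect differed between sophorose and glucose in 10 members by the interaction term of edgeR. Among the members named by the rule, the log2 difference (sophorose minus glucose) was positive for 105765 (1.75), 123690 (1.11) and 81136 (1.97). It was negative for 107775 (-3.62), 108144 (-2.54), snf1 (-1.56), 53776 (-1.97) and 66521 (-1.98). Members outside the rule with a negative difference were 21306 (-1.35) and 109806 (-1.15).

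In cellulose the strains also differ in their times in culture, and the part of this in the differences above cannot be told apart from the strain.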

How the results depend on the processing

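With the adjusted p alone and no fold threshold, the counts of called members rose to 46 (strains in cellulose), 64 (strains in sophorose), 7 (strains in glucose), 61, 74 and 36 (QM9414, cellulose and sophorose against glucose, sophorose against cellulose), 101, 76 and 84 (the same in Δxyr1), and 56 and 33 (interactions of cellulose with sophorose and with glucose). Without scaling factors, chosen after seeing the data, they were 36 and 20 for the strains in sophorose and glucose, 91 and 54 in Δxyr1 for cellulose against glucose and sophorose against cellulose, and 58, 58 and 6 for the interactions. A fit of the compared groups alone gave 0 for the strains in glucose.

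Leaving out 1 library gave ranges of 10 to 16, 12 to 21 and 0 to 1 for the strains in cellulose, sophorose and glucose, 21 to 26, 24 to 30 and 10 to 13 in QM9414, 40 to 53, 26 to 39 and 21 to 34 in Δxyr1, and 26 to 36, 14 to 26 and 7 to 19 for the interactions. The 21 and the 19 came without Δxyr1 sophorose replicate 3, and the 0 without QM9414 glucose replicate 1 or Δxyr1 glucose replicate 2 or 3.

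Same-numbered libraries share only a number. Over 40 pairs their deviations correlated between -0.262 and 0.437 (median 0.0556), and a replicate block gave 14, 13 and 1 called members for the strains, 26, 29 and 13 in QM9414, 45, 34 and 26 in Δxyr1 and 29, 19 and 13 for the interactions. For single named members, 33 values lost and 21 gained their call over all alternatives, of 4186 values tried, called or not. Of these, 0 called values changed sign. Calls kept under every setting were 9, 9 and 0 for the strains in cellulose, sophorose and glucose. Within QM9414 they were 17 of 26, 17 of 30 and 10 of 13, and within Δxyr1 37 of 44, 20 of 33 and 17 of 27. Members with few counts are limited by depth.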
